A study of Mus musculus with 18 samples.

Results

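Accessible chromatin was compared between Pax5-deficient and wild-type pro-B cells at every site of the series that is bound by EBF1 or PAX5. The sites were taken from 3 deposited tables of ChIP peaks and numbered 14377. Of these, 7815 were bound by EBF1 and not PAX5 (EBF1-only), 5033 by PAX5 and not EBF1 (PAX5-only) and 1529 by both factors (shared). All of them were kept, and 14365 held enough tags to be tested. The comparison used 6 of the 18 samples of the series: 3 ATAC libraries labelled Wt (WT) and 3 labelled Pax5-/- (Pax5-KO). The 3 ATAC libraries labelled Ebf1-/- (Ebf1-KO) shared the fit, and their values are given beside part of the results. All 3 genotypes were on the C57BL6/J background. Their cells came from fetal liver and had been expanded on OP9 stromal cells with interleukin-7 and the ligands of KIT and FLT3, so controls and knockouts shared the culture. The knockout cells came from fetuses deficient in the gene. The labels give no age, no batch and nothing on whether libraries came from separate fetuses or cultures, so that a p-value reflects only how far these libraries differ, which may be technical.

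ATAC-seq uses a transposase that inserts sequencing adapters where DNA is not wrapped in nucleosomes, so tags pile up over promoters and enhancers in use. EBF1 specifies the B lineage. PAX5, whose gene EBF1 activates, commits cells to it, by switching on B cell genes and by holding down genes of other lineages. Pro-B cells without PAX5 keep growing in interleukin-7 and can still form T cells, natural killer cells and myeloid cells. In bulk cells, fewer cells with an open site and less opening per cell cannot be told apart.

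The sequences of 9 named sites show the letters behind the motif counts given further on. They were read from the mm10 (GRCm38) genome on the plus strand, 5′ to 3′. Capitals mark the EBF1 palindrome CCCNNGGGA and the RUNX motif TGTGGT, on either strand. The first 5 sites lost signal in Pax5-KO and the last 4 gained it.
Nedd9 (lost, shared): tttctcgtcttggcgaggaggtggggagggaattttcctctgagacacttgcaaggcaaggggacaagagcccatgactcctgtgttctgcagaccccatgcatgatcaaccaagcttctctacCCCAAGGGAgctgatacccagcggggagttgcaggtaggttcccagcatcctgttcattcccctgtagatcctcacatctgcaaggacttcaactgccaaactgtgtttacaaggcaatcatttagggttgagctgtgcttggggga
Bcat1 (lost, shared): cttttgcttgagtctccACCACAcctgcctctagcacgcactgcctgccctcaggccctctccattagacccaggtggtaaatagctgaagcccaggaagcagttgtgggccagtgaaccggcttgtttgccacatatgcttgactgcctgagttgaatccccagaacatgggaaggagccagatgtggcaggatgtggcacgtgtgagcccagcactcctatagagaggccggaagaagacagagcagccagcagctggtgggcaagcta
Rag2 (lost, PAX5-only): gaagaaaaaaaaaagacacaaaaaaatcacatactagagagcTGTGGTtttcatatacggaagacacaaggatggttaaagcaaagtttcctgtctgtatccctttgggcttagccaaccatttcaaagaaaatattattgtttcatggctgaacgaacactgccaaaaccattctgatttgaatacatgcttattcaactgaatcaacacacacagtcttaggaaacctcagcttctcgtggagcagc
Cd28 (lost, PAX5-only): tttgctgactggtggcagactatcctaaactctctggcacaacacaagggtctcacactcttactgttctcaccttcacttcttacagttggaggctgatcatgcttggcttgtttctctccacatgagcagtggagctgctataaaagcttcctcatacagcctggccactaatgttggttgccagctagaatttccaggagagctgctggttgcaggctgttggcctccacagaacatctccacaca
Cd79a (reduced, shared): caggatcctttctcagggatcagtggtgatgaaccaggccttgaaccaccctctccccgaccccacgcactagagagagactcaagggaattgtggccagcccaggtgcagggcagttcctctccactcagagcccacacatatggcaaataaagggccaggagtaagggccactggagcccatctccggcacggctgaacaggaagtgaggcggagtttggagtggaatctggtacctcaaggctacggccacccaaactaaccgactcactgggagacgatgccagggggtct
Dtnb (gained, PAX5-only): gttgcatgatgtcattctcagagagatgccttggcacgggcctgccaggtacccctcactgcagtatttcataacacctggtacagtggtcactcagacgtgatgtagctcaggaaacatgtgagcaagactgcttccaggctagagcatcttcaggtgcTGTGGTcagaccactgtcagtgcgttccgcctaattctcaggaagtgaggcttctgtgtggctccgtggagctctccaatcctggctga
Itsn1 (gained, PAX5-only): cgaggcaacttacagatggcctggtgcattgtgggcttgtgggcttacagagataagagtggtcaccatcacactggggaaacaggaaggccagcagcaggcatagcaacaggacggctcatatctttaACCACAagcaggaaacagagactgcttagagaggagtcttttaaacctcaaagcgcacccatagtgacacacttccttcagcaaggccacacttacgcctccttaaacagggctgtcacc
Camkk1 (gained, shared): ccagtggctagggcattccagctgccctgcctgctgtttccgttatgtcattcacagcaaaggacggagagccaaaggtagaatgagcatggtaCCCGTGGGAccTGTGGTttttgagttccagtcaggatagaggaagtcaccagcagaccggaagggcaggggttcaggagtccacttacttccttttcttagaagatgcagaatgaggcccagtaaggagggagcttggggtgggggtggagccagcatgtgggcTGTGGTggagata
Akt2 (gained, EBF1-only): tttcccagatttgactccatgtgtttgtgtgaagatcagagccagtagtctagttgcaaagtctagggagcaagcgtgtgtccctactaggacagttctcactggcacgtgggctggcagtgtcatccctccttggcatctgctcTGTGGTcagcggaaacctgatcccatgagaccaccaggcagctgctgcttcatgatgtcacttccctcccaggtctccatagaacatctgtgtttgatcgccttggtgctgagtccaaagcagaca

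The Nedd9 site (chr13:41427115-41427385, an intron) holds 1 EBF1 palindrome. The Bcat1 site (chr6:145020623-145020893, an intron) and the Rag2 site (chr2:101598867-101599115, an intron, at -25757 bp from the Rag2 start) hold 1 RUNX motif each. The Cd28 site (chr1:60798781-60799029, intergenic) and the Cd79a promoter (chr7:24897241-24897535) hold neither. All 4 gained sites hold a RUNX motif: 1 each near Dtnb (chr12:3548523-3548771, intergenic), Itsn1 (chr16:91789802-91790050, an intron) and Akt2 (chr7:27578496-27578766, an intron, at -12929 bp from the Akt2 start), and 2 in the Camkk1 intron (chr11:73024525-73024795), which also holds 1 EBF1 palindrome. The introns given for the Rag2 and Akt2 sites lie upstream of the start of the named gene. The PAX5 core GCGTGAC is in none of the 9. These sites are picked examples. The RUNX motif was in 50.2% of all sites that rose in Pax5-KO, beside 30.6% of all sites tested. Another risen site, near Zcchc6, lacks it.

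WT libraries held 15.3, 35.1 and 38.6 M tags and Pax5-KO libraries 28.4, 37.7 and 23.02 M. Values are tags inside a peak per 10 M tags of the library, as scaled by the authors. The bound sites took 2.31, 1.52 and 1.95% of the tags in WT and 1.02, 0.876 and 0.825% in Pax5-KO, so the groups did not overlap in the overall level. A scaling that assumes most sites unchanged (TMM) removes that gap: it moved the median log2 fold change of all sites from -0.75 to 0.03. Whether the lower share in Pax5-KO comes from less signal over background in those libraries or from lower accessibility cannot be told apart in the peak tables. Calls, falls and rises below are therefore those with the authors' scaling, and "under both scalings" gives the sites that also passed with TMM. Pax5 RNA, which checks the genotype labels, was 1314, 1629 and 1619 reads per 10 M in WT and 99.1, 98.6 and 129 in Pax5-KO. Ebf1 RNA was 3969 ± 634 in WT (SD, n = 3) and 1515 ± 170 in Pax5-KO, so the cells without PAX5 also held less Ebf1 message (adjusted p = 1.97e-06).

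In Pax5-KO the signal was lower at 7405 of 14365 sites (51.5%) and higher at 303 (2.11%) at a Benjamini-Hochberg adjusted p under 0.05 (limma). With TMM, 3058 sites were lower (21.3%) and 1966 higher (13.7%). All 3058 were among the 7405, all 303 were among the 1966, and no site was called in opposite directions. Every Pax5-KO library lay below every WT library at 7807 of the 14377 sites (54.3%) and above at 425 (2.96%). The number of falls thus depends on the scale.

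Sites bound by PAX5 lost more than sites bound by EBF1 alone. The median log2 fold change was -0.55 in EBF1-only, -1.03 in PAX5-only and -1.28 in shared sites. Of the EBF1-only sites 3168 were lower (40.6%) and 195 higher, the latter 122 without Pax5-KO replicate 1. Of the PAX5-only sites 3068 were lower (61.0%) and 90 higher. Of the shared sites 1169 were lower (76.5%) and 18 higher. Under both scalings the lower shares were 10.3, 31.9 and 42.4%.

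Shared sites were the most open of the 3 classes in WT. Their mean log2(value + 1) was 4.63, 4.11 and 4.41 in WT and 3.04, 2.90 and 2.86 in Pax5-KO, with 2.59, 2.63 and 2.70 in Ebf1-KO. PAX5-only sites had 3.27, 2.89 and 3.14 in WT and 1.99, 1.94 and 1.88 in Pax5-KO, with 2.09, 2.14 and 2.19 in Ebf1-KO. EBF1-only sites had 3.32, 2.97 and 3.19 in WT and 2.63, 2.53 and 2.46 in Pax5-KO, with 2.25, 2.28 and 2.33 in Ebf1-KO. In each class all Pax5-KO libraries were below all WT libraries, by 1.45, 1.16 and 0.62 (exact two-sided permutation p = 0.1 for each, the smallest that 3 against 3 libraries can give). Taken as log2 of the summed signal of a class, the changes were -1.41, -1.40 and -0.80. On that measure shared and PAX5-only sites fell by nearly the same amount.

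A scale factor common to a library nearly cancels in the difference of 2 classes. PAX5-only minus EBF1-only was -0.05, -0.07 and -0.05 in the WT libraries and -0.64, -0.59 and -0.57 in Pax5-KO, a change of -0.55, and -0.15, -0.14 and -0.15 in Ebf1-KO. Shared minus EBF1-only was 1.31, 1.14 and 1.22 in WT and 0.41, 0.37 and 0.40 in Pax5-KO, a change of -0.83, and 0.35, 0.35 and 0.37 in Ebf1-KO. Neither difference overlapped between WT and Pax5-KO (exact two-sided permutation p = 0.1, the smallest possible). In WT the PAX5-only and EBF1-only sites were within 0.1 of each other in every library, and in Pax5-KO the PAX5-only sites were the less open. The fall of the EBF1-only class turned to 0.14 with TMM, whereas PAX5-only and shared sites kept their sign (-0.44 and -0.61).

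**Figure D1:**
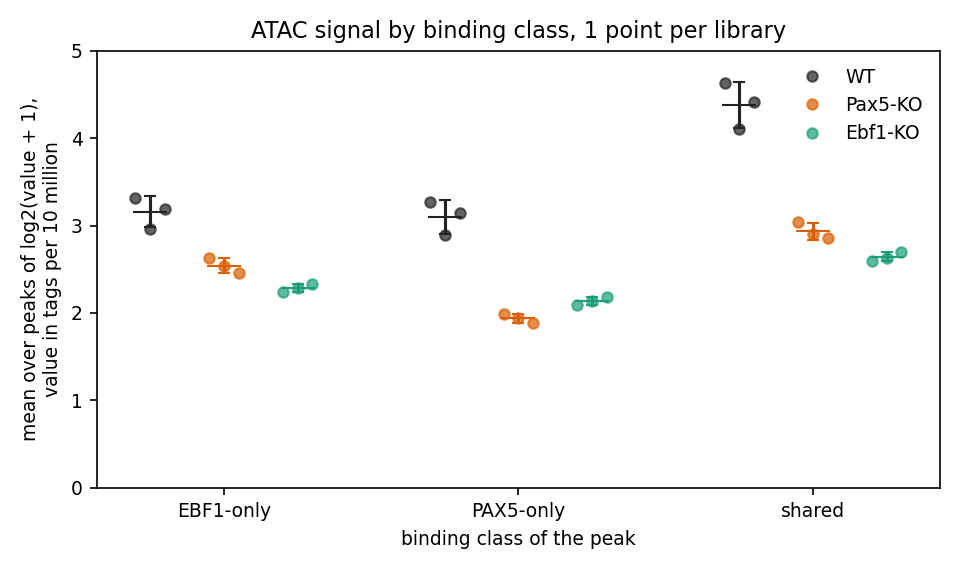
Mean log2(value + 1) over the peaks of a class (y axis, value in tags per 10 M) for each library, by binding class (x axis); lines and bars are mean and SD of 3 libraries. Pax5-KO points lie below WT points in all 3 classes, by 0.62 in EBF1-only, 1.16 in PAX5-only and 1.45 in shared sites, and Ebf1-KO points are shown beside them.

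The depth of the loss varied among the most open sites of WT, those with a WT mean of at least 20. The choice by the WT value alone tilts this set towards a fall, so its values are a description. There were 3105 such sites, and 426 of them (13.7%) kept under 10% of the WT mean. These made up 25.6% of the 851 PAX5-only, 17.3% of the 810 shared and 4.71% of the 1444 EBF1-only sites. The median share of signal kept was 26.6, 32.9 and 52.3% in PAX5-only, shared and EBF1-only sites.

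**Figure D2:**
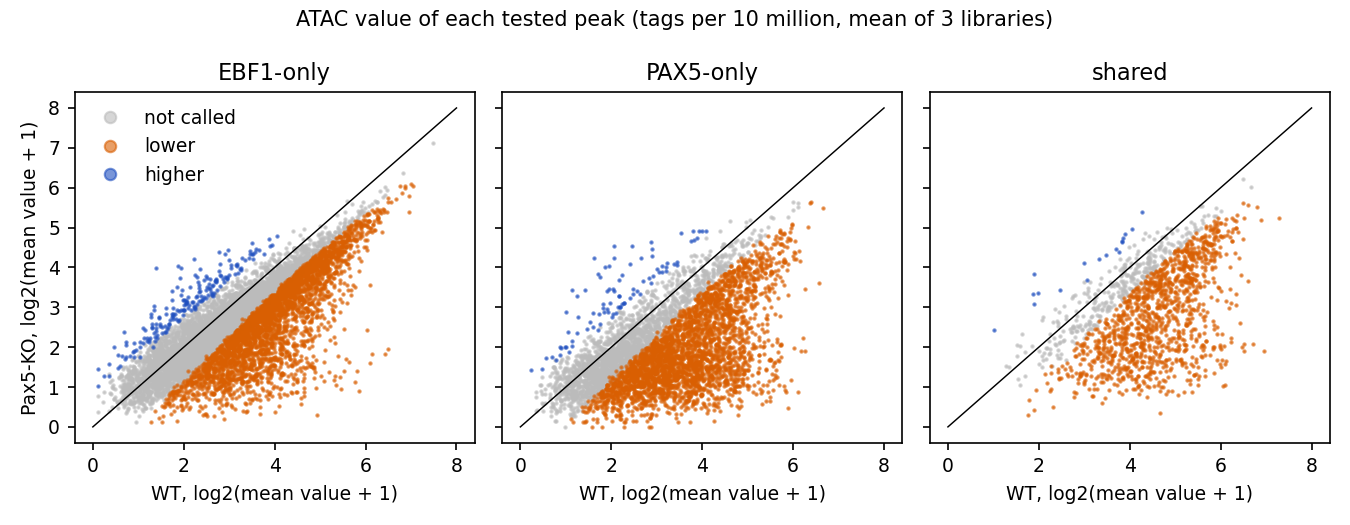
Each point is 1 tested peak, with log2(mean value + 1) in WT on the x axis and in Pax5-KO on the y axis; the line marks equal values and colours give the call with the authors' scaling. The EBF1-only cloud runs mostly parallel to the line and below it, while more of the PAX5-only and shared sites spread down to the floor. Of sites with a WT mean of at least 20, 68 of 1444 EBF1-only sites kept under 10% of it. For PAX5-only and shared sites it was 218 of 851 and 140 of 810. In the 3 classes 195, 90 and 18 sites lie above as higher.

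Sites with a higher ChIP score had the larger drop. The authors' ChIP peak score was used to split each class into 4 equal groups. From the lowest to the highest score in PAX5-only sites, the share lower was 50.0, 54.9, 63.2 and 75.8% (21.5, 26.1, 33.3 and 46.6% under both scalings), and the median log2 fold change went from -0.79 to -1.48. Their median WT value went from 6.07 to 10.2 while the Pax5-KO value stayed between 2.25 and 2.49. In shared sites the share lower went from 65.0 to 89.5% (32.9 to 60.5% under both scalings), and in EBF1-only sites from 31.8 to 54.2% (6.92 to 14.2%). Scores were compared within a class only, since the ChIP data sets differ.

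Distance from start sites separated the classes further. EBF1-only sites within 1 kb of a start site numbered 2022 and had a median log2 fold change of -0.60, against -0.52 for the 5781 farther away. With the authors' scaling 45.5% of the near sites and 38.9% of the far ones were lower, whereas under both scalings it was 2.87 and 12.9%, so the order of the 2 groups turned. PAX5-only sites had -0.74 near (376 sites) and -1.07 far (4655). Shared sites had -0.98 near (116) and -1.33 far (1413). In these 2 classes the far sites had the higher share lower under both scalings, 33.3 against 14.4% and 43.5 against 28.4%.

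Of the 36 key genes of B cell development and its alternatives, 33 had a bound site. At the site of each with the highest WT mean, 29 fell, 1 rose and 3 were not called. Of the 29, 19 fell under both scalings, beside 51.5 and 21.3% of all sites. Choosing a site by its WT value tilts it towards a fall, so part of the gap to all sites may follow from the choice. The counts are a description. Ebf1, Ikzf1 and Fcer1g had no bound site listed nearest to them.

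Parts of the pre-B cell receptor came first. The Cd79a promoter, at the gene of the signalling chain Ig-alpha, had 52.9, 34.2 and 43.8 in WT and 14.1, 12.2 and 12.6 in Pax5-KO, with 2.34, 2.72 and 3.20 in Ebf1-KO. The Igll1 promoter, at the gene of surrogate light chain lambda 5, had 75.8, 53.6 and 58.3 in WT, 26.8, 17.8 and 20.9 in Pax5-KO and 3.5, 5.75 and 3.84 in Ebf1-KO. At both promoters Pax5-KO thus lay between WT and Ebf1-KO with no overlap. The falls were -1.66 ± 0.27 (log2, SE; adjusted p = 1.37e-07) and -1.48 ± 0.26 (adjusted p = 1.24e-06), and Pax5-KO exceeded Ebf1-KO by 1.90 (adjusted p = 1.65e-08) and 2.09 (adjusted p = 4.38e-10).

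The Vpreb1 promoter, 99 bp before the start of the gene of the other surrogate light chain part and bound by PAX5 alone in these tables, had 24.2, 13.1 and 17.9 in WT and 17.6, 8.22 and 7.38 in Pax5-KO. The groups overlapped, and the fall of -0.74 ± 0.31 (adjusted p = 0.0379) was 0.13 with TMM and not called. The call was also lost without WT replicate 1 (-0.53) or 3 (-0.74) and without Pax5-KO replicate 2 (-0.59) or 3 (-0.52). Ebf1-KO libraries had 1.56, 0.61 and 1.92 there. Vpreb1 RNA did not pass either (adjusted p = 0.383).

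Blnk encodes the adaptor that carries the pre-B receptor signal. Its site at -1723 bp had 34.6, 15.95 and 22.3 in WT and 2.12, 2.92 and 2.61 in Pax5-KO, a fall of -2.77 ± 0.35 (adjusted p = 9.43e-11). Nedd9, which encodes a docking protein of integrin and receptor signalling, held the deepest loss of the key genes: 52.3, 27.4 and 41.4 in WT against 1.76, 0.27 and 0.43 in Pax5-KO (-4.55 ± 0.36, adjusted p = 6.23e-20). Of its 11 sites 9 fell, 7 of them under both scalings. Fcrla, a B cell Fc receptor-like protein, went from 83.0, 47.3 and 72.3 to 1.41, 1.86 and 2.61. Ebf1-KO libraries held more at this last site, 8.96, 6.05 and 7.36, and the direct contrast of the knockouts passed (-1.52, adjusted p = 9.19e-06).

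The Cd22 promoter, at the gene of an inhibitory coreceptor, fell from 22.8 ± 5.09 to 4.64 ± 2.42 (SD, n = 3; log2 difference -2.14 ± 0.32, adjusted p = 2.26e-08). The Cd72 promoter went from 14.7 ± 0.873 to 6.28 ± 0.954 and the Cd79b site from 18.9 ± 1.27 to 7.25 ± 1.26. Both were lower with the authors' scaling only. Over the list of pre-B and B cell receptor genes, 54 of 78 sites fell (69.2%), 32 under both scalings (41.0%), beside 51.5 and 21.3% of all sites. None rose with the authors' scaling, and 6 were higher with TMM. Their median log2 fold change was -1.16.

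Of 125 sites near transcription factors of the B lineage 81 fell (64.8%), 38 under both scalings (30.4%), beside 51.5 and 21.3% of all sites. The median log2 fold change was -1.11. None rose with the authors' scaling, and 10 were higher with TMM. The Irf8 site at -10870 bp had 53.6, 29.3 and 36.5 in WT and 5.64, 5.04 and 7.82 in Pax5-KO (-2.49 ± 0.28). Lef1, a Wnt-pathway factor of early B cells, had 50.3, 28.2 and 37.3 at an EBF1-only site in WT and 7.41, 8.48 and 8.25 in Pax5-KO (-2.09 ± 0.29). All 8 of its sites fell, 6 under both scalings. Ebf1-KO libraries had 1.17, 1.51 and 1.60 there, lower than Pax5-KO (direct contrast 1.90, adjusted p = 8.75e-08).

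Pou2af1, the B cell co-activator of octamer factors, went from 34.6, 41.3 and 41.4 to 11.99, 14.6 and 10.4 at its promoter, with 0.78, 0.61 and 1.28 in Ebf1-KO. Here the direct contrast was 2.82 (adjusted p = 6.38e-14), so the promoter was more open without PAX5 than without EBF1. Foxo1, which drives Rag expression, fell from 54.3 ± 11.7 to 18.6 ± 3.54 at its strongest site, 175719 bp from its start (-1.49 ± 0.27). Of its 12 sites only 5 fell, 4 under both scalings, beside 51.5 and 21.3% of all sites. Ikzf3, which encodes Aiolos, fell from 14.4 ± 3.98 to 1.87 ± 0.647 (-2.41 ± 0.35).

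Irf4 and Bach2 are both regulators of B cell differentiation. The fall at the most open site of each was not called with TMM. Of 5 Irf4 sites 4 fell, 1 under both scalings, and all 6 Bach2 sites fell, 3 under both. The Irf4 site had 15.03, 15.1 and 16.6 in WT, 10.9, 6.10 and 5.65 in Pax5-KO and 16.4, 16.6 and 15.7 in Ebf1-KO. It was thus lower in Pax5-KO than in both other genotypes, with a direct contrast of -1.06 (adjusted p = 0.00182), but its fall against WT was not called with TMM (-0.15). The Bach2 site went from 24.9 ± 7.22 to 12.9 ± 3.91 (-0.90 ± 0.27). It was at -0.01 with TMM, and its call was lost without Pax5-KO replicate 2 (-0.66, adjusted p = 0.0714). The Pax5 gene itself had a PAX5-only site at -18768 bp, with 15.7, 9.12 and 6.47 in WT and 2.12, 3.18 and 1.74 in Pax5-KO (-1.71 ± 0.36, adjusted p = 3.98e-05), and it was also called with TMM (-0.94).

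Genes of V(D)J recombination, which cuts and joins antigen receptor segments, had 21 sites, of which 15 fell (71.4%), 7 under both scalings (33.3%), beside 51.5 and 21.3% of all sites (median log2 fold change -0.95). None rose with the authors' scaling and 1 with TMM. The Rag2 site whose sequence is printed above had 54.2, 24.8 and 33.9 in WT and 4.23, 2.39 and 2.61 in Pax5-KO (-3.20 ± 0.31, adjusted p = 2.56e-15). A site in an Xrcc4 intron and one in a Lig4 intron, genes of the end-joining ligase complex, fell by 3.28 and 3.18 on the log2 scale. The Rag1 intron site went from 6.60 ± 0.110 to 2.32 ± 1.13, and its call was lost with TMM. Dntt, which encodes terminal transferase, had 18.9, 11.1 and 17.6 in WT and 10.9, 10.6 and 6.52 in Pax5-KO. Its -0.70 (adjusted p = 0.0267) turned to 0.16 with TMM and lost its call without WT replicate 1 (-0.57) or 3 (-0.62) or Pax5-KO replicate 3 (-0.49), while Dntt RNA went from 120 ± 25.9 to 0.965 ± 0.287.

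**Figure D3:**
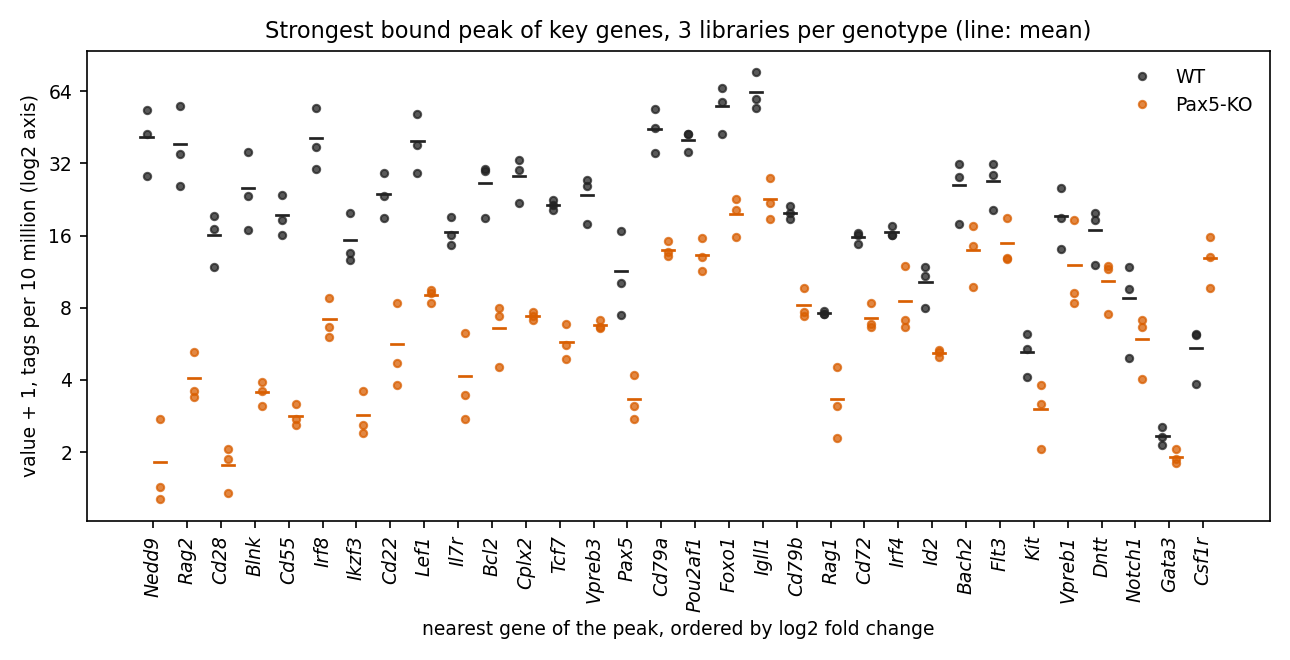
The most open bound peak of 32 of the 33 key genes with one (x axis, ordered by log2 fold change) with value + 1 on a log2 axis (tags per 10 M); points are libraries and lines means of 3. From Nedd9 to Flt3 the WT points lie above the Pax5-KO points, Vpreb1 and Notch1 overlap, and at Csf1r Pax5-KO is higher; with TMM the differences at Flt3, Vpreb1, Dntt, Notch1 and Gata3 turn positive.

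The 10 deepest losses among sites with a mean of at least 20 over both groups were near Bcat1, Mbip, Sel1l3, Pon2, Pfn2, Kctd16, 1600027J07Rik, Mageb16-ps1, 4933406D12Rik and Gm38403. Of these sites 6 were PAX5-only, 3 shared and 1, near Kctd16, EBF1-only. The intron site of Bcat1, which encodes a branched-chain amino acid transaminase, went from 150, 82.9 and 138 to 4.23, 1.86 and 2.17 (-5.06 ± 0.28, adjusted p = 1.39e-27). The site nearest to 1600027J07Rik had 73.2, 34.5 and 66.3 in WT and 0, 0.27 and 0.87 in Pax5-KO, where only 3 tags were counted over all libraries. Bcat1 RNA also fell, from 1391 ± 350 to 408 ± 108, as did Pon2 RNA, from 492 ± 53.5 to 59.6 ± 8.67.

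Of all sites 51.5% fell, and 21.3% under both scalings. Near T lineage, natural killer and stem and progenitor genes the shares were near or below these, except for natural killer genes under both scalings. Dendritic cell genes had higher shares, 60.9 and 26.1%. For myeloid genes the share was lower with the authors' scaling (38.5%) and higher under both scalings (30.8%). Of 31 sites near T lineage genes 17 fell (54.8%), 6 under both scalings (19.4%). Of 12 sites near natural killer and innate lymphoid genes 5 fell (41.7%), 4 under both scalings (33.3%), and 1 rose. Of 16 sites near stem and progenitor genes 5 fell (31.2%), 1 under both scalings (6.25%), while 3 were higher with TMM. The median log2 fold changes were -0.77, -0.56 and -0.48, against -0.75 over all sites. Cd28, a T cell costimulatory receptor, had a site 52517 bp from its start with 18.3, 10.8 and 16.1 in WT and 0.35, 1.06 and 0.87 in Pax5-KO (-3.18 ± 0.37, adjusted p = 3.02e-12). Its RNA went the other way, from 8.503 ± 4.48 to 1546 ± 252.

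Lower signal beside more RNA was seen at other genes too. Zap70, a T cell receptor kinase, went from 24.2, 16.5 and 16.6 to 2.47, 2.12 and 2.17 at a site 22873 bp from its start, while its RNA rose from 0.276 ± 0.247 to 33.04 ± 9.50. All 5 of the Zap70 sites fell, but only this 1 under both scalings. Sites were tied to genes here only as the nearest gene. Klrd1, a natural killer receptor chain, went from 25.5, 11.7 and 15.5 to 1.41, 0.80 and 0, and its RNA from 5.49 ± 0.937 to 64.9 ± 8.11. Tox, a regulator of T and innate lymphoid cells, went from 71.2, 41.9 and 59.3 to 21.9, 12.99 and 10.9, and its RNA from 2.96 ± 1.16 to 253 ± 44.6. The sites were bound by PAX5, EBF1 or both and open in WT, where these RNAs were low.

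Counted by gene, 7 T lineage genes with a fallen site had tested RNA, and in all 7 it was higher, among them Cd28, Tcf7 and Zap70. For natural killer and innate lymphoid genes it was 4 of 4 (Id2, Klrd1, Tox and Tyrobp) and for stem and progenitor genes 3 of 3 (Cd93, Flt3 and Lmo2). For the list of lineage-inappropriate genes that PAX5 is known to hold down, 26 of 43 sites fell (60.5%), 12 under both scalings (27.9%), beside 51.5 and 21.3% of all sites, and of 14 genes with a fallen site 10 had higher and 1 lower RNA. In contrast, of 25 pre-B and B cell receptor genes with a fallen site 16 had lower and 3 higher RNA. Over all 12839 genes tested, RNA was lower in 11.9% and higher in 34.7%, with a median log2 fold change of 0.28. With TMM, which moves that median to 0.017 and the shares to 24% and 25.9%, the T lineage, natural killer and stem cell counts of genes with higher RNA were still 7, 4 and 3, and the pre-B and B cell receptor genes had 19 lower and 1 higher. Counting only genes with a site fallen under both scalings, RNA was higher in 5 of 5 T lineage, 4 of 4 natural killer and 1 of 1 stem and progenitor genes (Lmo2), as the Flt3 and Cd93 sites were not called with TMM. It was higher in 6 of 9 of the genes held down by PAX5, and lower in 16 of 19 pre-B and B cell receptor genes. The counts rest on few genes and are a description. As 1 list was made of genes known to be held down by PAX5, its higher RNA follows in part from that choice. Genes without a fallen site were not counted, so these counts cannot set genes with and without a fall side by side.

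Other sites of these lineages lost their call with TMM or had none. Flt3, the receptor for one of the culture cytokines, had 30.7, 19.4 and 27.7 in WT and 17.99, 11.9 and 11.7 in Pax5-KO (-0.86 ± 0.27, adjusted p = 0.00449), which became 0.04 with TMM. Its RNA went from 8.46 ± 1.29 to 917 ± 46.3. The sites of Kit, Notch1 and Gata3 were not called (adjusted p = 0.0628, 0.165 and 0.546). Kit was called without WT replicate 2 (-0.99) or Pax5-KO replicate 1 (-1.02), and Notch1 without WT replicate 1 (-0.89). Csf1r, the macrophage colony-stimulating factor receptor, had the 1 key site that rose, an EBF1-only site with 5.23, 2.85 and 5.18 in WT and 11.99, 14.8 and 8.69 in Pax5-KO (1.25 ± 0.31, adjusted p = 0.000473). Ebf1-KO libraries had 3.5, 4.24 and 2.88 there, below Pax5-KO (direct contrast 1.48, adjusted p = 0.000142). Csf1r RNA was low in both but also called higher, at 1.21 ± 0.742 and 3.63 ± 0.686 (log2 difference 1.12, adjusted p = 0.01, and 0.031 with TMM).

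Markers of other cell types were read in the RNA. The summed level of 9 pro-B markers was 25419 to 26630 reads per 10 M in WT and 8342 to 11949 in Pax5-KO. Dendritic markers (5 genes, mainly Siglech) went from 6.19 to 7.29 up to 88.7 to 110, and natural killer and innate markers (6 genes) from 0.561 to 0.793 up to 17.9 to 30.98. The 6 myeloid markers summed to 8.45 to 20.2 and 71.0 to 100. T cell markers stayed at 2.11 to 4.21 and 3.42 to 4.60, with Bcl11b, Cd3e, Cd3g and Cd4 under 1 in all 6 libraries, as were Ncr1, Elane and Clec9a. Stromal markers ranged from 139 to 310 in WT and from 90.6 to 242 in Pax5-KO. Hepatocyte markers stayed under 5 and erythroid markers under 10 reads in all 6 libraries. The part of other cells in the ATAC values was not tested.

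Among genes of cytokine signalling and survival, 25 of 51 sites fell (49.0%), 12 under both scalings (23.5%), beside 51.5 and 21.3% of all sites, and 2 rose. The median log2 fold change was -0.79. The Il7r site at -19276 bp, near the interleukin-7 receptor gene, went from 22.2, 13.1 and 6.99 to 0.71, 1.59 and 0.43 (-2.90 ± 0.37). A PAX5-only site in a Bcl2l1 intron, the gene of the survival factor BCL-XL, went from 41.8, 22.2 and 35.5 to 1.41, 3.18 and 2.17, and Bcl2l1 RNA from 129 ± 15.8 to 19.0 ± 6.92. The Bcl2 intron site went from 25.4 ± 6.43 to 5.61 ± 1.83 (-2.0 ± 0.30), whereas Bcl2 RNA rose from 350 ± 68.1 to 2025 ± 284. Sites near Pim1 and Bcl2l11 were the 2 that rose, by 1.26 ± 0.33 and 1.14 ± 0.38. At the risen Bcl2l11 site the groups overlapped, and its call was lost without WT replicate 3 (0.85) or Pax5-KO replicate 3 (0.97). Of the 9 sites near Bcl2l11, 7 fell, 4 under both scalings, while none of the 6 near Pim1 fell.

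Among genes of the PI3K pathway and glucose uptake 23 of 57 sites fell (40.4%), 10 under both scalings (17.5%), beside 51.5 and 21.3% of all sites, and the median log2 fold change was -0.60. The strongest fall was near Nr3c1, the glucocorticoid receptor gene (-3.5 ± 0.33). A pair of sites in this group rose: one near Pik3r1, the regulatory subunit, from 1.96, 0.57 and 3.63 to 7.41, 8.48 and 4.78, and the Akt2 site printed above, from 7.84, 5.70 and 4.4 to 17.6, 10.9 and 10.9 (1.01 ± 0.31), which lost its call without Pax5-KO replicate 1 (0.79, adjusted p = 0.0544). At the Akt2 site Ebf1-KO libraries had 3.12, 4.54 and 1.92, below Pax5-KO (direct contrast 1.77, adjusted p = 4.2e-06). Pik3r1 RNA rose from 826 ± 141 to 3698 ± 283, although 2 of its 3 sites fell. The 1 that fell under both scalings had 3 tags left over all Pax5-KO libraries. Akt2 RNA was not called (log2 difference -0.38, adjusted p = 0.0603) and was lower with TMM (-0.65, adjusted p = 5.54e-05).

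Near adhesion and homing genes 38 of 54 sites fell (70.4%), 19 under both scalings (35.2%), beside 51.5 and 21.3% of all sites, with a median log2 fold change of -1.14. The 1 that rose was an EBF1-only site near Cxcr4 (0.96 ± 0.34), whose call was lost without WT replicate 1 (0.79) or Pax5-KO replicate 1 (0.72) or 2 (0.91). Cxcr4, the CXCL12 receptor that holds progenitors in the marrow, also had a shared site with 39.9, 37.6 and 41.2 in WT and 5.29, 3.45 and 3.04 in Pax5-KO (-3.07 ± 0.27, adjusted p = 3.39e-17). An Itga4 site, at an integrin chain gene, fell by 3.17 on the log2 scale with no called change of Itga4 RNA (adjusted p = 0.210). The next shares stand beside the same 51.5% of all sites, and 21.3% under both scalings. For chromatin regulators 17 of 36 fell (47.2%), 9 under both scalings (25.0%), with the deepest fall near Dnmt3a, a DNA methyltransferase (-3.73 ± 0.30), whose RNA was 814 ± 141 and 817 ± 84.7. For the cell cycle 11 of 22 fell (50.0%), 3 under both scalings (13.6%), and for dendritic cell genes 14 of 23 (60.9%), 6 under both (26.1%). For myeloid genes 5 of 13 fell (38.5%), 4 under both scalings (30.8%), and for ribosomal protein genes 7 of 10 (70.0%), 2 under both scalings.

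Fallen sites were also counted by nearest gene, which ranks genes in part by how many sites they have. The genes with most were Rprl1 (22 of 42, 13 under both scalings), 4930515G16Rik (15 of 27, 11 under both) and Rpia (13 of 16, 10 under both). Then came Tgfbr2, the TGF-beta receptor gene (12 of 14, 5 under both), 9430078K24Rik (12 of 17, 4 under both) and Bcar3 (9 of 9, 7 under both), beside 51.5 and 21.3% of all sites. Capn13, Fli1 and Nedd9 also had 9. All 42 sites of Rprl1, 26 of 27 of 4930515G16Rik and 15 of 16 of Rpia lie inside the immunoglobulin kappa light chain locus, which was looked at after these values were seen. Within the kappa genes of GENCODE vM21 (chr6:67555497-70726966, mm10) lay 83 sites, 68 of them EBF1-only, and 49 of the 79 tested fell (62.0%), 33 under both scalings (41.8%), and 1 rose.

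The kappa sites were weakly open in WT, with a median of 5.23, 3.42 and 4.66 per library, and nearly closed in Pax5-KO, at 1.06, 0.80 and 0.87. The 68 EBF1-only sites alone had 38 falls of 64 tested (59.4%), 26 under both scalings (40.6%), beside 40.6 and 10.3% of all EBF1-only sites. Ebf1-KO medians over the locus were 0.78, 0.61 and 0.96. Many of these genes are near copies of each other, so tags could be misplaced among them. In the heavy chain locus (chr12:113254830-116010093) 14 of 30 sites fell (46.7%), 8 under both scalings (26.7%), beside 51.5 and 21.3% of all sites. None rose with the authors' scaling, and 3 were higher with TMM.

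The 303 sites that rose were a weak set in WT. Their median value was 3.26 in WT and 8.65 in Pax5-KO, and 195 were EBF1-only, 90 PAX5-only and 18 shared. Of the risen sites 16 lay within 1 kb of a start site, 0.636% of the 2514 tested there, against 2.42% of the 11849 farther away. With TMM 419 of the 2514 near sites and 1546 of the 11849 far ones were higher, so the order of the 2 groups turned. The medians in Ebf1-KO differed by class: 2.99 at the EBF1-only sites, against 7.87 in Pax5-KO, and 12.3 at the PAX5-only sites, against 9.32 in Pax5-KO. As the sites were chosen for their WT and Pax5-KO values, these levels are a description.

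Over all tested sites, without that choice, Pax5-KO was compared with Ebf1-KO by the direct contrast. Of 7805 EBF1-only sites 1333 were higher and 397 lower in Pax5-KO. Of 5031 PAX5-only sites 123 were higher and 765 lower. Of 1529 shared sites 360 were higher and 139 lower. Over all 14365 sites 12.6% were higher and 9.06% lower. The share higher was largest in shared sites, and their share lower was close to that of all sites. EBF1-only and shared sites were thus more often the higher in Pax5-KO, and PAX5-only sites more often the higher in Ebf1-KO.

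Only 7 risen sites had a mean of at least 20 over both groups with no overlap. They lay near Zcchc6, Htra4, Dtnb, Tmem51os1, Camkk1, Itsn1 and Trappc10. The Itsn1 site, at the gene of an endocytic scaffold, had 18.3, 15.95 and 13.98 in WT, 34.2, 25.97 and 27.8 in Pax5-KO and 46.7, 49.0 and 53.1 in Ebf1-KO (0.83 ± 0.26 against WT, adjusted p = 0.00508). The Dtnb site, near the dystrobrevin beta gene, had 20.3, 9.97 and 12.7 in WT and 38.1, 24.7 and 24.3 in Pax5-KO (1.00 ± 0.27). RNA of both genes rose, Itsn1 from 37.1 ± 8.62 to 240 ± 10.4 and Dtnb from 42.2 ± 4.17 to 219 ± 29.4. Of the 4 Itsn1 sites 1 rose and 1 fell, and Dtnb had only this 1. The Camkk1 site had 14.4, 14.5 and 12.95 in WT and 29.6, 25.7 and 27.4 in Pax5-KO (0.93 ± 0.26), and its RNA was low in both but called higher, 0.604 ± 0.404 and 3.20 ± 0.323 (adjusted p = 0.0015). Zcchc6 RNA was higher by 0.33 on the log2 scale (adjusted p = 0.0366), but not called with TMM (0.06, adjusted p = 0.575). Trappc10 RNA was not called with either scaling (adjusted p = 0.837 and 0.0515), and RNA of Htra4 and Tmem51os1 was not tested.

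Sequence content differed between sites that rose and sites that fell. In 14360 tested sites the genome was searched on both strands for 7 motifs. The RUNX motif TGTGGT, read by factors of the RUNX family, was in 30.6% of all sites, 31.3% of fallen and 50.2% of risen ones. Within PAX5-only sites it was in 37.0% of all, 36.0% of fallen and 71.1% of the 90 risen ones. Within EBF1-only sites the shares were 23.4, 22.4 and 39.0%, so the gap was there in both classes. Of the 7 risen sites named above 6 held it, and of the 10 deepest losses 2, near Bcat1 and Pon2.

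The EBF1 palindrome CCCNNGGGA followed the loss in the reverse order. In EBF1-only sites it was in 52.4% of all, 43.7% of fallen and 65.1% of risen ones. By log2 fold change it was in 34.1% of the 88 EBF1-only sites under -3, 41.0% from -3 to -2, 46.4% from -2 to -1, 51.2% from -1 to 0 and 66.0% at 0 or above. Among EBF1-only sites the palindrome was thus most frequent where the signal did not drop.

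The PAX5 core GCGTGAC was rare, in 5.74% of PAX5-only and 1.36% of EBF1-only sites. It was in 4.47% of fallen and 7.74% of uncalled PAX5-only sites. The E-box CACCTG was in 24.5% of all sites, 25.8% of fallen and 26.1% of risen ones, and TGACTCA (AP-1) in 6.19, 6.02 and 8.25%. ACCGGAAGT (ETS) and CCCTTTGAT (TCF and LEF) were in 0.557 and 0.279% of all sites. Motifs were sought apart and may overlap.

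RNA of the 3 RUNX genes was higher in Pax5-KO. Runx2 went from 12.1, 11.6 and 8.56 reads per 10 M in WT to 1205, 1345 and 1587, Runx3 from 147 ± 39.4 to 460 ± 127, and Runx1 from 2159 ± 176 to 3531 ± 522. In Ebf1-KO the Runx2 libraries had 2067, 2586 and 2844. Whether RUNX factors bind the risen sites was not tested.

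RNA of the nearest gene was compared with the change of the site. Of all tested sites, 10556 had a nearest gene with tested RNA, which was lower in Pax5-KO at 20% and higher at 36%. At fallen sites the shares were 26 and 31.1%, at sites fallen under both scalings 36.1 and 26.8%, and at risen sites 7.96 and 56.2%. With RNA scaled by TMM the shares at fallen sites were 39.5 and 24.6%, against 33.1 and 28.5% at all sites.

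The relation was graded and steeper close to the gene. For sites with a log2 fold change under -3 the RNA was lower at 45.8% and higher at 18.5%, and for sites at 0 or above it was 11.5 and 47.3%. Within 10 kb of the start site these became 56.4 and 10.9% (55 sites), and 8.24 and 49.3% (558 sites). Sites that share a gene are not independent, and the shares are a description. At 35.8% of the sites under -3 the RNA of the nearest gene was not called.

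**Figure D4:**
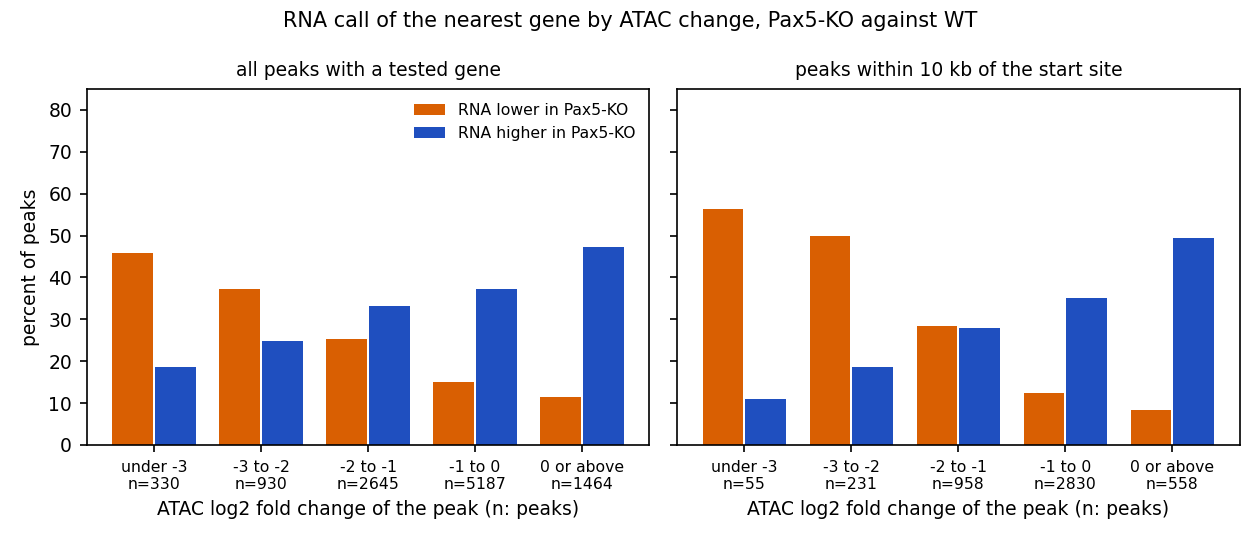
Percent of peaks (y axis, from 0) whose nearest gene had lower or higher RNA in Pax5-KO, by the ATAC log2 fold change of the peak (x axis, with the number of peaks), for all peaks and for those within 10 kb. The lower share drops from 45.8 to 11.5% and the higher share climbs from 18.5 to 47.3% from left to right, and in the right panel from 56.4 to 8.24% and from 10.9 to 49.3%.

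The authors also listed PAX5 peaks near genes whose RNA differed between WT and Pax5-KO, and these lists were chosen on the RNA libraries. The 597 sites near genes higher in WT had 473 falls (79.4%), 292 under both scalings (49.0%), and 1 rise. The 520 sites near genes lower in WT had 291 falls (56.0%), 127 under both scalings (24.4%), and 15 rises. Mean log2(value + 1) of the first list was 4.01, 3.53 and 3.83 in WT and 2.23, 2.14 and 2.08 in Pax5-KO. For the second it was 3.54, 3.12 and 3.4 in WT and 2.46, 2.39 and 2.34 in Pax5-KO. The first list minus the second was 0.47, 0.42 and 0.43 in WT and -0.23, -0.25 and -0.25 in Pax5-KO, a change of -0.68 with no overlap (exact two-sided permutation p = 0.1, the smallest possible). In Ebf1-KO it was -0.25, -0.31 and -0.26.

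Both lists thus lost signal, and the sites near genes higher in WT lost more. The authors' pooled profiles give the shape around the peak centre. Near genes higher in WT the coverage at the centre was 7.37 in WT and 2.10 in Pax5-KO, and 2500 bp away it was 1.04 and 0.759. Near genes lower in WT it was 5.75 and 2.77 at the centre, and 0.799 and 0.786 at the edge. The flanks of the second set were thus nearly level while the centres differed.

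**Figure D5:**
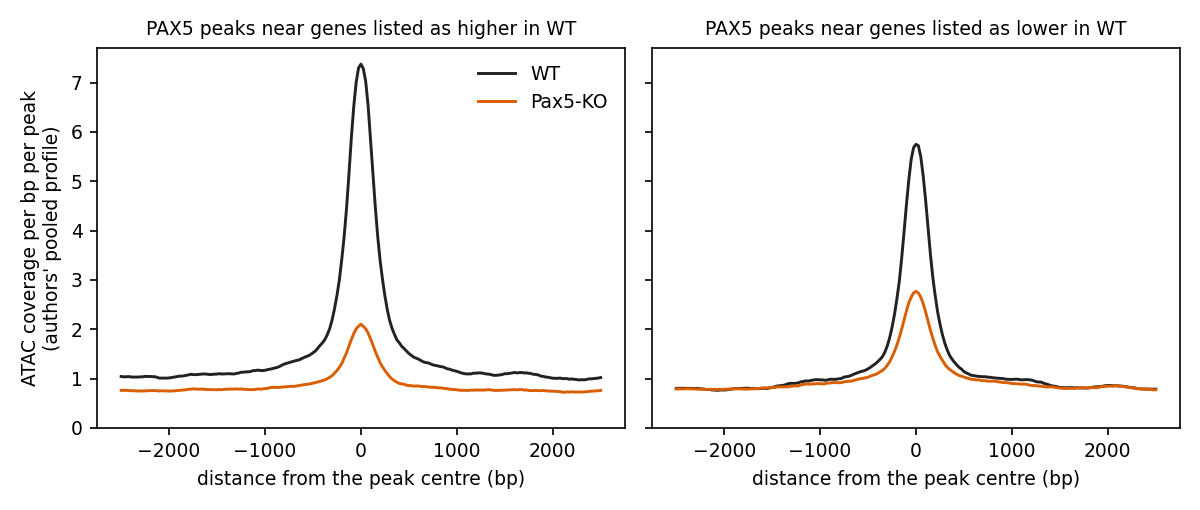
The authors' pooled ATAC coverage per bp per peak (y axis) by distance from the centre of PAX5 peaks (x axis, bp), near genes they list as higher or lower in WT; there is 1 curve per genotype and no error. At the centre WT reached 7.37 and Pax5-KO 2.10 in the left panel, and 5.75 and 2.77 in the right.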

How the data were processed

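ATAC-seq and RNA-seq libraries of cultured fetal liver pro-B cells were used, 3 of each kind per genotype. Per the labels' protocols, Nextera transposase was applied to 80 k cells and libraries were read as single reads. Per the submitters' processing notes, Bowtie2, TopHat, HOMER, edgeR and DESeq2 were used with mm10 (GRCm38). Their versions are not stated there. The ATAC signal deposited by the authors is the number of tags in each peak scaled to 10 M tags per library, per the file headers. Whole tags were recovered from it for 100% of values (tolerance 0.1 tag). RNA signal was deposited as exon reads scaled to 10 M. The ChIP peak score is the authors' own, and the pooled profiles were deposited as coverage in bins of 25 bp.

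Values were tested as log2(value + 1) with limma 3.58.1 (trend, two-sided) over 9 libraries with 1 mean per genotype, the authors' scaling kept, and Benjamini-Hochberg adjustment over 14365 peaks with at least 10 tags over the 9 libraries, at 0.05. Class means were compared by exact permutation over libraries. The scripts were tested on simulated data. Alternatives were TMM, equal summed signal and quantile scaling, edgeR 4.0.16 and DESeq2 1.42.0 on tags, other pseudocounts and filters, the replicate number as a block, and leaving out each library. edgeR with the authors' scaling was chosen after seeing the data. Nearest genes are the authors' annotation, with 592 peaks named through RefSeq accessions and 5 left without a gene. Sequences were read for 14372 peaks from GRCm38.

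Named peaks were the most open of each of 36 key genes, the 10 largest falls and rises among called peaks with a mean of at least 20 and no overlap (only 7 rises qualified), up to 3 per direction in each of 15 gene lists, and the 6 genes with most calls per direction. The comparison, the lists and the rules were chosen with earlier results of these data known. WT and Pax5-KO libraries with the same number did not deviate together (r = 0.110, 0.0367 and -0.0280), so the numbers were not taken as pairs. Some named sites are not reported here.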

Additional observations from a re-analysis of the deposited data

How the results depend on the processing

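The number of called sites depended on the scaling. In the order mean of at least 10 (fewer sites tested, 4276), TMM, equal summed signal, quantile normalization, edgeR with TMM and DESeq2, the sites lower in all were 3004, 3058, 2751, 2714, 3177 and 2492, and the sites higher 85, 1966, 2736, 3094, 2234 and 1423. EBF1-only sites were lower at 1423, 806, 695, 673, 863 and 606, and higher at 31, 1340, 1913, 2183, 1566 and 935. PAX5-only sites were lower at 866, 1604, 1467, 1414, 1644 and 1309, and higher at 43, 457, 600, 670, 487 and 347. Shared sites were lower at 715, 648, 589, 627, 670 and 577, and higher at 11, 169, 223, 241, 181 and 141. Relative to the main calls, 35 sites were opposite with equal summed signal and 20 with quantile normalization, and none with the other alternatives. edgeR with the authors' scaling, chosen after seeing the data, gave 7313 lower and 294 higher.

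The mean change of EBF1-only sites turned to 0.14 with TMM and 0.29 with quantile normalization. The differences between classes kept their sign under every alternative run. With 1 library left out, 6223 to 7948 sites were lower and 216 to 287 higher, and the EBF1-only sites higher ranged from 122 to 181. The replicate number as a block gave 7393 lower and 303 higher sites. No class mean could be called with or without it, since the smallest p is 0.25 with the block (sign-flip test) and 0.1 without. RNA of the nearest gene was lower at 39.5% of fallen sites with RNA scaled by TMM, and at risen sites at 14.9% with TMM and 3.77% within 10 kb.

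Of the 96 named peaks 67 kept direction and call under all alternatives that gave a value. With TMM, equal summed signal, quantile normalization, edgeR with TMM and DESeq2 the sign turned at Vpreb1 (0.13, 0.25, 0.29, 0.25 and 0.23), Dntt (0.16, 0.28, 0.37, 0.22 and 0.21), Flt3 (0.035, 0.16, 0.13, 0.047 and 0.046), Notch1 (0.26, 0.37, 0.42, 0.16 and 0.19) and Gata3 (0.19, 0.26, 0.30, 0.31 and 0.33). With equal summed signal and quantile normalization it turned at Bach2 (0.11 and 0.11) and Cd93 (0.063 and 0.054), and with the latter at the Id2 promoter (0.035). The cause of these changes was not tested. Without 1 library the rises near Trappc10, Arid1b and the EBF1-only Cxcr4 site also lost their call. A peak of median depth held 8 to 34 tags in the WT and Pax5-KO libraries, which limits single weak sites.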
